A study of Mus musculus with 4 samples.

Results

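The unfolded protein response and the folding genes of the endoplasmic reticulum (ER) were followed through 35 named genes, chosen by their symbols among the 55487 gene identifiers of the deposited tables. The 35 symbols matched 36 identifiers, because Ddit3 is carried by a pair of overlapping gene models, and 35 identifiers passed the expression filter. The Ddit3 model left out (ENSMUSG00000116429.1) held an estimated count of 1 in every library. The members were grouped by role into 4 sensor and Xbp1 genes, 17 genes of the chaperone and folding arm driven by ATF6 and XBP1, 7 genes of ER-associated degradation (ERAD) and 7 genes of the ATF4 arm.

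The cells were muscle stem (satellite) cells of the Tg:Pax7-nGFP genotype, a reporter in which Pax7 regulatory sequence drives nuclear green fluorescent protein. Skeletal muscle of mouse 1 and of mouse 2 was minced and exposed to a vivo-morpholino, an antisense oligomer able to enter cells without a transfection reagent, while the tissue went through its initial digestion. The libraries labelled control morpholino received a control oligomer, and those labelled Numb exon 6 morpholino received one that blocks inclusion of exon 6 of Numb, an adaptor protein known to inhibit Notch. With 1 library from each mouse under either morpholino, a group held 2 libraries of 2 animals, and all 4 libraries share the reporter, the mincing and an oligomer. No library came from muscle without an oligomer, and neither age nor sex is given in the sources used here. The 9 satellite cell markers summed to between 9463 and 11201 TPM, a transcript level scaled to length and library. Most of each sum came from Sdc4 (6499 to 7673 TPM), and the markers were not all high. Pax7 ran from 37.0 to 59.7 TPM and Chrnd from 0.635 to 1.31 TPM. The sums ran from 762 to 956 TPM for 7 markers of fibro-adipogenic progenitors, a secretory cell type, and from 2.89 to 11.2 TPM for 8 markers of B and plasma cells. The 9 leukocyte markers summed to 29.4 and 35.9 TPM in the controls and to 40.3 and 131 TPM in the Numb exon 6 libraries of mouse 1 and mouse 2. No marker was at 0 in all libraries.

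Proteins that enter the secretory pathway fold in the ER with the help of chaperones, lectins and disulphide isomerases. When unfolded protein builds up, the sensors IRE1 (Ern1), ATF6 and PERK (Eif2ak3) act from the ER membrane. IRE1 splices the Xbp1 messenger so that it encodes an active transcription factor, ATF6 is cut to release one, and PERK phosphorylates eIF2 alpha, which slows translation and favours that of ATF4. ATF6 and XBP1 raise chaperone and ERAD genes, while ATF4 raises genes of amino acid supply, of the feedback on eIF2 alpha and of cell death. In satellite cells, PERK and eIF2 alpha phosphorylation are known for their part in quiescence and survival. Values per gene do not separate spliced from unspliced Xbp1.

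Many genes of the response are known to carry the ER stress response element (ERSE), where ATF6 binds beside the factor NF-Y. RefSeq promoter windows on GRCm38.p6, from 250 bases before to 50 bases after the annotated start, were matched for 30 of the 35 members; Atf6, Manf, Hyou1, Derl1 and Ppp1r15b were not matched. These starts can differ from the gene bounds given below, which are those of GENCODE. The ERSE was searched on both strands as CCAAT and CCACG parted by 9 bases of any kind. It was found in 39 of 32851 promoter windows (0.119%), and 9 of those 39 belonged to members (23.1% of the windows with the element, and 30% of the members with a window). Of these, 7 were among the 15 chaperone and folding genes with a window and 2 among the 6 ERAD genes, with 0 of 3 in the sensor group and 0 of 6 in the ATF4 arm. The shorter ERSE-II, ATTGG and CCACG parted by 1 base, occurred in 0.0365% of all windows and in those of Herpud1 and Dnajb11. The element TGACGTGG, which XBP1 can bind, occurred in 0.676% of all windows and in 0 of the members. TGATGNAA, the core of the composite element bound by ATF4 and C/EBP factors (CARE), occurred in 3.97% of all windows. It was matched in 3 of the 6 ATF4 arm genes (Chac1, Asns and Trib3) and in Herpud1. No match overlapped another. A match is a description of the letters and not of a bound site.

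The stretches below show the matches in capitals on the sense strand of each gene, upstream of its start. An ERSE on the opposite strand reads CGTGG first. The CARE cores of Herpud1 and Chac1, also on the opposite strand, read TTGCATCA. Hspa5 is given with the 150 bases before its start because it is the defining target of the response, and the others with 10 bases on each side. They lie at chr2:34771940-34772089 (Hspa5, plus strand), chr10:86705628-86705666 and chr10:86705523-86705561 (Hsp90b1, minus), chr8:84847065-84847103 (Calr, minus), chr11:50325790-50325828 (Canx, minus) and chr12:17266481-17266519 (Pdia6, plus). Those of the ERAD and ATF4 genes lie at chr19:6046522-6046560 (Syvn1, plus), chr8:94386367-94386397 and chr8:94386307-94386334 (Herpud1, plus), chr2:119351039-119351066 (Chac1, plus) and chr6:7693215-7693242 (Asns, minus).
Hspa5, ERSE: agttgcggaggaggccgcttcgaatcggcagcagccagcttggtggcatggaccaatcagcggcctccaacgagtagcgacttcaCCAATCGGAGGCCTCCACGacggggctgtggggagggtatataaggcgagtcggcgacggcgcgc
Hsp90b1, distal ERSE: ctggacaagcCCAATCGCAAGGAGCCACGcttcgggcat
Hsp90b1, proximal ERSE: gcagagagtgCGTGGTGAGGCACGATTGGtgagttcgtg
Calr, ERSE: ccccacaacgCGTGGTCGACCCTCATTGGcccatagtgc
Canx, ERSE: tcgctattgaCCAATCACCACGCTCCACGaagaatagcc
Pdia6, ERSE: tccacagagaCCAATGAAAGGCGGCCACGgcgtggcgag
Syvn1, ERSE: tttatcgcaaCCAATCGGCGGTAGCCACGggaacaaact
Herpud1, ERSE-II: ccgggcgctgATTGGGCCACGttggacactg
Herpud1, CARE: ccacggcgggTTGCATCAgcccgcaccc
Chac1, CARE: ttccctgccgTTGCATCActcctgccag
Asns, CARE: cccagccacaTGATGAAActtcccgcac

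The ERSE matches of Creld2, Dnajc3 and Derl3 lay 126, 105 and 156 bases before the start at their first base. That of Hspa5 began 65 bases before the start and that of Syvn1 44 bases before it. Upstream of its start Herpud1 held both an ERSE-II, beginning 52 bases before it, and a CARE core, beginning 112 bases before it.

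**Figure D1:**
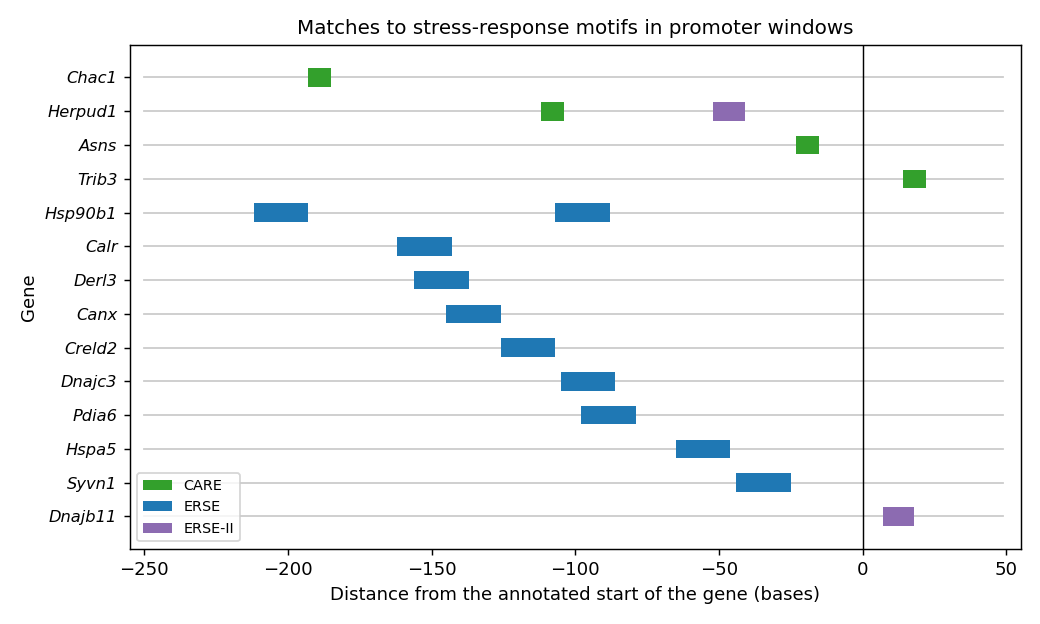
Position of each motif match (bars, coloured by motif) in the promoter windows of the members that hold one, against the distance in bases from the annotated start of the gene (vertical line). The 10 ERSE matches of 9 genes all lie upstream of the start, between 212 and 26 bases before it.

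The members were abundant transcripts. TPM, which is scaled to transcript length and so allows comparison between genes, put 5 of them at a mean of 1000 or more (118 of all identifiers reached that level), 23 at 100 or more and 33 at 10 or more. Hspa5, the ER chaperone BiP that also holds the sensors inactive, had a mean level of 6692 TPM and ranked 12 of all 55487 identifiers. Xbp1, Herpud1, Ppp1r15a and Hsp90b1 followed at mean levels of 1321, 1267, 1233 and 1016 TPM. Together the members made up 1.71% of the TPM with the control and 1.84% with the Numb exon 6 morpholino in mouse 1, and 1.79% and 1.80% in mouse 2. Hspa5 alone gave 36.1% to 38.2% of that share. At the low end stood Asns (10.4 TPM), Eif2ak3 (9.32 TPM) and Derl3 (0.696 TPM). Derl3 was the one member under a mean log2 CPM (counts scaled to library size) of 3. For all genes that reached 3, the median log2 ratio of Numb exon 6 to control in mouse 1 was 0.075 on log2(TPM + 1). On log2 CPM it was 0.010. In mouse 2 these medians were 0.020 and -0.004. The rise in the members' share of TPM was not set apart from this shift of scale.

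**Figure D2:**
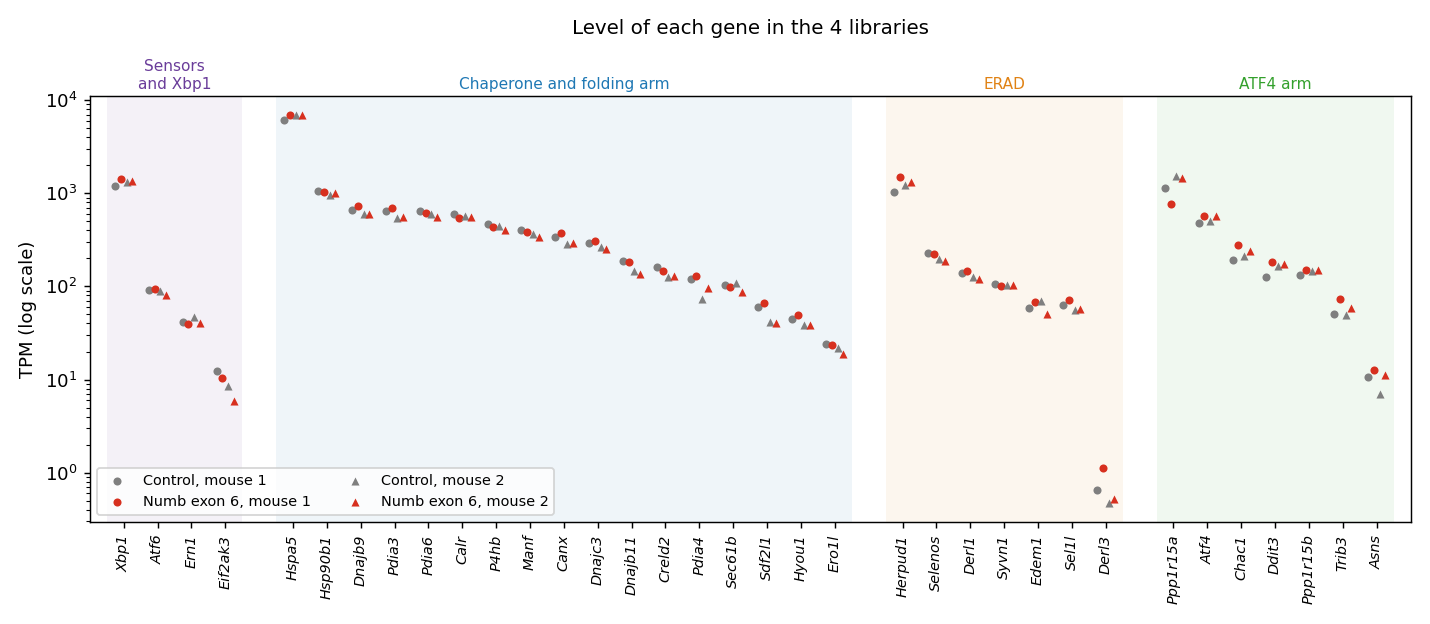
Level in TPM (log axis) of each of the 35 members in the 4 libraries, ordered by mean level within each role; grey marks control and red Numb exon 6 libraries, circles mouse 1 and triangles mouse 2. Most members differ far more from each other, from 0.696 TPM for Derl3 to 6692 TPM for Hspa5, than between libraries.

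The comparison of the morpholinos asked how these genes responded to the block of Numb exon 6. No member passed the edgeR quasi-likelihood test at an adjusted p under 0.05, where 0% of all 27551 tested genes were called; each member had an adjusted p of 0.999. At an unadjusted p under 0.05 edgeR gave 1 of the 35 members, Chac1, which was higher, against 4.16% of all genes (2.5% higher and 1.66% lower). With the mouse as a block, which removes the difference between the animals, edgeR gave 6 at an unadjusted p under 0.05 (Chac1 and Trib3 higher; Ern1, Eif2ak3, P4hb and Ppp1r15a lower), against 6.09% of all genes (3.41% higher and 2.68% lower) and 10.2% of the 8469 genes whose mean log2 CPM reached 3, and called 0. In DESeq2 without a block 0 of the members were called and 0 had an unadjusted p under 0.05, against 1472 of all 27551 genes. Adding the block to the DESeq2 fit left 0 members called. It put 4 members at an unadjusted DESeq2 p under 0.05, against 1970 of all genes. These were Chac1 and Trib3, which were higher, and Eif2ak3 and Ppp1r15a, which were lower. In both mice 11 members had higher and 15 lower values with the Numb exon 6 morpholino, against 28.1% and 27.3% of all genes. On log2(TPM + 1) the balance turned, with 15 members higher and 12 lower, against 32.1% and 23% of all genes. The median log2 fold change of the 35 members was -0.04, beside 0.005 over all genes tested. Log2 fold changes compare Numb exon 6 with control on CPM scaled by TMM, with 2 libraries per group. The SE was derived from the fold change and the statistic of the edgeR test. Each p value and SE measures the spread among these 4 libraries of 2 animals, after edgeR drew the variance of each gene towards that of other genes. In the blocked fit little spread is left to a single gene, so its p values rest largely on other genes. The blocked SE was 0.068 for each of Pdia3, Pdia6 and P4hb.

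**Figure D3:**
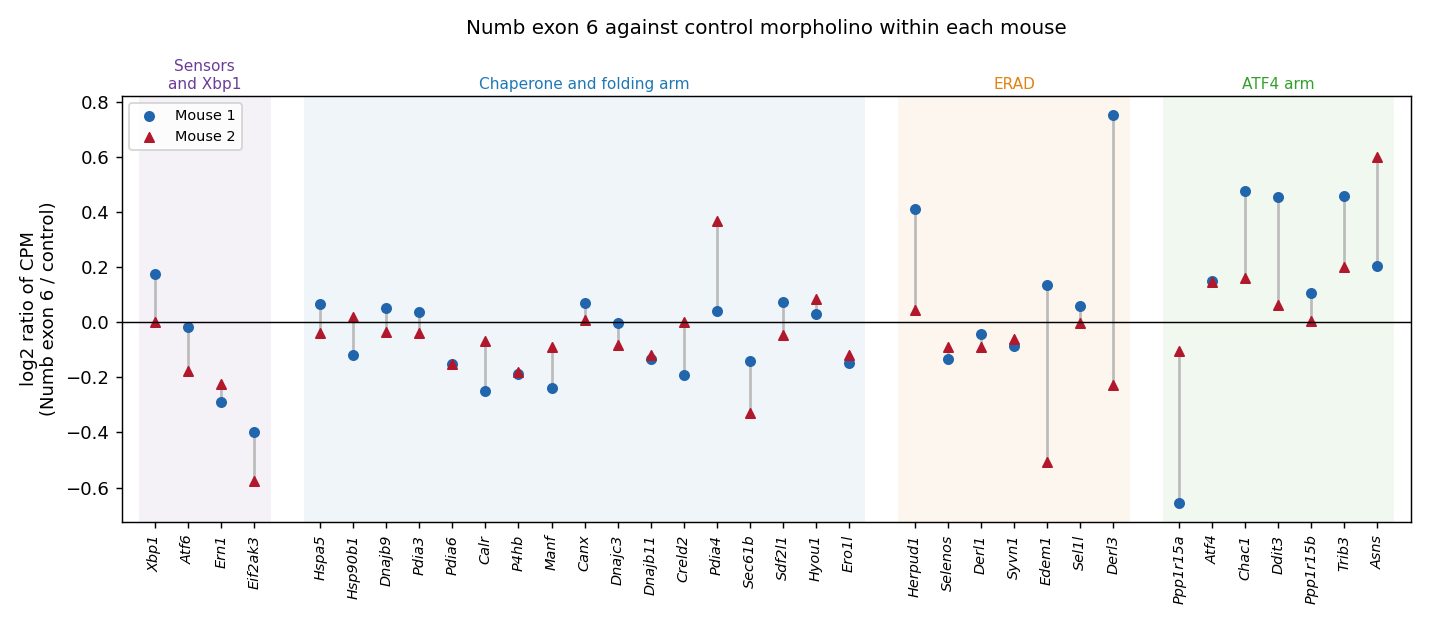
Log2 ratio of CPM, Numb exon 6 over control morpholino, within mouse 1 (circles) and mouse 2 (triangles) for each member, with a grey line joining the mice. In the ATF4 arm 6 of 7 genes lie above 0 in both mice and Ppp1r15a lies below 0 in both, while the chaperone and folding genes lie between -0.33 (Sec61b, mouse 2) and 0.37 (Pdia4, mouse 2).

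Values of a gene under a morpholino are given for mouse 1 and then mouse 2. Of the sensor group, 3 genes had lower values with the Numb exon 6 morpholino in both mice and Xbp1 had higher ones, and none passed the test. Ern1 (chromosome 11, 106394650 to 106487852), which encodes the kinase and nuclease IRE1, gave 86.8 and 90.3 CPM under the control and 71.1 and 77.3 CPM under the Numb exon 6 morpholino. Its groups did not overlap, and the log2 fold change was -0.25 ± 0.12 (SE), with an unadjusted edgeR p of 0.079, and of 0.037 in the blocked fit. Eif2ak3 (chromosome 6, 70844515 to 70905245), the kinase PERK, gave 28.5 and 17.3 CPM under the control and 21.6 and 11.6 CPM under the Numb exon 6 morpholino. It was lower with the Numb exon 6 morpholino inside each mouse (log2 ratios of -0.40 and -0.58), but mouse 2 lay below mouse 1 under either morpholino, so the morpholino groups overlapped. The log2 fold change of -0.46 ± 0.38 (SE) became -0.49 ± 0.13 (SE) in the fit blocked by mouse, with an unadjusted edgeR p of 0.015 and an adjusted p of 0.796. Without the block, leaving out 1 library moved it to between -0.98 (without the mouse 1 Numb exon 6 library) and -0.059 (without the mouse 1 control).

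Atf6 (chromosome 1, 170704674 to 170867771), the sensor cut in the Golgi, gave 334 and 318 CPM under the control and 330 and 282 CPM under the Numb exon 6 morpholino, and its log2 fold change was -0.09 ± 0.12 (SE). Its ratio in mouse 1 was near 0 (-0.02), and 0.04 on log2(TPM + 1). Xbp1 (chromosome 11, 5520659 to 5525893) gave 1224 and 1287 CPM under the control and 1383 and 1289 CPM under the Numb exon 6 morpholino. The Numb exon 6 libraries lay above the controls, in mouse 2 by a log2 ratio of only 0.002, and the log2 fold change was 0.09 ± 0.10 (SE). Of the members, 7 had both Numb exon 6 libraries above both controls and 5 had both below, against 17.4% and 17.1% of all genes.

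The chaperone and folding arm lay close to its control level, and none of its genes passed the test. Its 17 members had a median log2 fold change of -0.05, from -0.23 (Sec61b) to 0.17 (Pdia4), with 3 higher and 8 lower in both mice (5 and 7 on log2(TPM + 1)). The sign of that median turned without the control library of mouse 1 (0.058) or the Numb exon 6 library of mouse 2 (0.023), and on log2(TPM + 1) (0.0069). Hspa5 (chromosome 2, 34771970 to 34777547) gave 8357 and 8844 CPM under the control and 8748 and 8617 CPM under the Numb exon 6 morpholino. Both Numb exon 6 values lay between the controls, and the log2 fold change was 0.01 ± 0.09 (SE). In TPM they lay above both controls (6171 and 6846 TPM against 6882 and 6871 TPM). Hsp90b1 (chromosome 10, 86690209 to 86705509), the ER member of the HSP90 family known as GRP94, gave 1584 and 1378 CPM under the control and 1460 and 1395 CPM under the Numb exon 6 morpholino, a log2 fold change of -0.05 ± 0.11 (SE). Its direction differed between the mice, with log2 ratios of -0.12 and 0.02. Dnajb9 (chromosome 12, 44205559 to 44210326), the BiP co-chaperone ERdj4 and a target of XBP1, gave 871 and 774 CPM under the control and 904 and 756 CPM under the Numb exon 6 morpholino. The log2 fold change was 0.01 ± 0.13 (SE), and its values followed the mouse rather than the morpholino.

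P4hb (chromosome 11, 120560298 to 120573253), a protein disulphide isomerase and a subunit of prolyl 4-hydroxylase, gave 719 and 664 CPM under the control and 631 and 585 CPM under the Numb exon 6 morpholino. The groups did not overlap, the ratios were alike in the mice (-0.19 and -0.18), and the log2 fold change was -0.19 ± 0.11 (SE), with an unadjusted edgeR p of 0.141, and of 0.044 in the blocked fit. Sec61b (chromosome 4, 47474658 to 47483242), a subunit of the channel through which proteins enter the ER, gave 31.1 and 31.7 CPM under the control and 28.2 and 25.2 CPM under the Numb exon 6 morpholino, without overlap. Its log2 fold change was -0.23 ± 0.14 (SE). Calr, the lectin chaperone calreticulin, was the third folding gene whose Numb exon 6 libraries lay below both controls (684 and 610 CPM against 575 and 583 CPM). On CPM, 3 of the 17 folding genes thus lay below and 0 above, against 17.1% and 17.4% of all genes tested. Canx, the membrane-bound relative of Calr, had a log2 fold change of 0.04 ± 0.18 (SE).

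Among the other isomerases, Pdia3 and Pdia6 had log2 fold changes of 0.003 and -0.15. Pdia4 (log2 ratios of 0.04 and 0.37), picked once its values were known, gave 150 and 88.6 CPM under the control and 154 and 114 CPM under the Numb exon 6 morpholino, so the mice differed more than the morpholinos. The BiP cofactors Dnajb11, Dnajc3 and Sdf2l1 had log2 fold changes of -0.13, -0.04 and 0.03, and Hyou1, the large chaperone that exchanges nucleotide on BiP, 0.06. The secreted stress proteins Creld2 and Manf had -0.10 and -0.17, and Ero1l, the oxidase that recharges disulphide isomerases, -0.13. The SE of these 9 members, Pdia3 and Pdia6 among them, ran from 0.12 to 0.32.

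**Figure D4:**
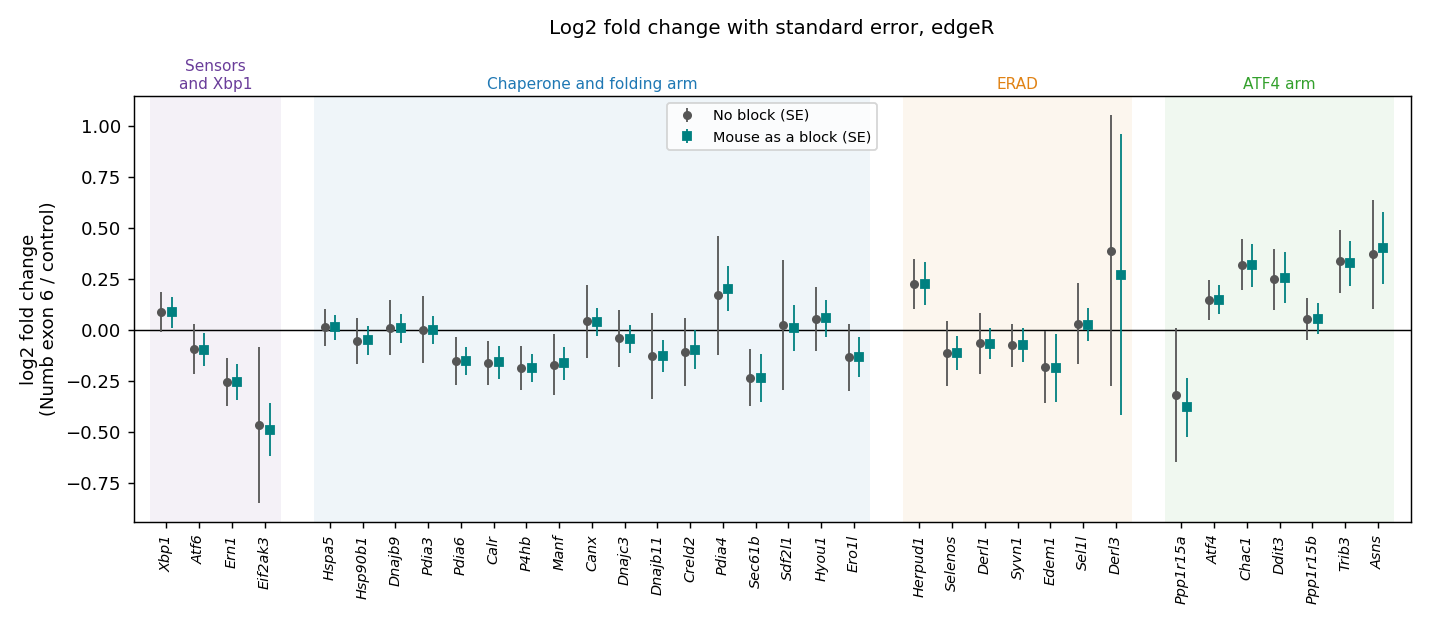
Log2 fold change of each member (Numb exon 6 over control) with a standard error derived from the edgeR test statistic, without a block (circles) and with the mouse as a block (squares), n = 2 libraries per group. With the block the largest shift in value is that of Derl3, from 0.39 to 0.27, while the error of Eif2ak3 narrows from 0.38 to 0.13 and that of Pdia4 from 0.29 to 0.11.

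The ERAD genes, whose products carry misfolded protein back to the cytosol for degradation, had a median log2 fold change of -0.06, with 1 higher and 3 lower in both mice (3 and 2 on log2(TPM + 1)). The median was 0.054 with the mouse 1 control library left out and 0.067 with the mouse 2 Numb exon 6 library left out. Herpud1 (chromosome 8, 94386438 to 94395377), a membrane protein that assembles the ERAD complex, gave 946 and 1067 CPM under the control and 1258 and 1101 CPM under the Numb exon 6 morpholino. The Numb exon 6 libraries lay above both controls, by a log2 ratio of 0.41 in mouse 1 and 0.05 in mouse 2, and the log2 fold change was 0.23 ± 0.12 (SE), with an unadjusted edgeR p of 0.119. Selenos, the selenoprotein that recruits the p97 ATPase, gave 138 and 112 CPM under the control and 126 and 105 CPM under the Numb exon 6 morpholino, a log2 fold change of -0.11 ± 0.16 (SE). Derl1, a channel component of the Derlin family, gave 238 and 203 CPM under the control and 231 and 191 CPM under the Numb exon 6 morpholino, a log2 fold change of -0.06 ± 0.15 (SE). The mice separated both genes and the morpholinos did not.

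The ubiquitin ligase Syvn1 (HRD1) and its partner Sel1l gave log2 fold changes of -0.07 ± 0.11 and 0.03 ± 0.20 (SE). Edem1, a lectin that picks mannose-trimmed substrates, went opposite ways in the mice and was picked once its values were known. It gave 168 and 201 CPM under the control and 184 and 141 CPM under the Numb exon 6 morpholino. Its log2 ratios of 0.13 and -0.51 come from 1 library each, so their difference was not tested. Derl3, the Derlin found mostly in secretory cells and likewise picked once its values were known, had estimated counts of 80 and 60 under the control and of 125 and 39 under the Numb exon 6 morpholino. The mice went opposite ways (log2 ratios of 0.75 and -0.23), and the log2 fold change of 0.39 was smaller than its SE of 0.66.

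The ATF4 arm had a median log2 fold change of 0.25, with 6 of its 7 genes higher in both mice and 1 lower, and none passed the test. That median was 0.137, 0.151 and 0.163 without the control library of mouse 1, that of mouse 2 and the Numb exon 6 library of mouse 1. Leukocyte markers were higher in both mice for 8 of 9 and lower for 1, with the sums given above. Of the 131 TPM in the mouse 2 Numb exon 6 library, S100a8 gave 46.5 and S100a9 36.0 TPM. Markers of satellite cells (5 of 9), fibro-adipogenic progenitors (4 of 7), tenocytes (4 of 5) and endothelium (3 of 6) were also higher in both mice, with 0 lower. B and plasma cell markers gave 2 higher and 1 lower, and those of mature myofibres 2 and 2. The share over all genes was 28.1% higher. The part of other cells in the result was not tested. The median of the arm was 0.20 within mouse 1 and 0.15 within mouse 2, and the count was the same on log2(TPM + 1). The Numb exon 6 libraries lay above both controls for 5 of the 7 genes, against 17.4% of all genes tested (6 and 20.5% in TPM). Among the 5 was Ppp1r15b, whose log2 ratio in mouse 2 was only 0.006. Atf4 (chromosome 15, 80255184 to 80257541), the transcription factor of the arm, gave 454 and 461 CPM under the control and 504 and 511 CPM under the Numb exon 6 morpholino. The mice gave the same log2 ratio of 0.15, and the log2 fold change was 0.15 ± 0.10 (SE), with an unadjusted edgeR p of 0.18. Ddit3 (chromosome 10, 127290774 to 127296288), the pro-apoptotic factor CHOP, gave 60.03 and 75.3 CPM under the control and 82.2 and 78.6 CPM under the Numb exon 6 morpholino. Its log2 ratio was 0.45 in mouse 1 and 0.06 in mouse 2, and its log2 fold change was 0.25 ± 0.15 (SE).

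Chac1 (chromosome 2, 119351229 to 119354381), an enzyme that degrades glutathione, gave 169 and 180 CPM under the control and 235 and 201 CPM under the Numb exon 6 morpholino. The groups did not overlap, the log2 ratios were 0.48 and 0.16, and the log2 fold change was 0.32 ± 0.13 (SE), with an unadjusted edgeR p of 0.049 and an adjusted p of 0.999 (0.033 and 0.796 in the blocked fit). Trib3 (chromosome 2, 152337422 to 152344032), a pseudokinase induced by ATF4 and CHOP, gave 53.0 and 50.5 CPM under the control and 72.7 and 58.0 CPM under the Numb exon 6 morpholino. Its groups did not overlap either, and its log2 fold change was 0.34 ± 0.15 (SE), with an unadjusted edgeR p of 0.078, and of 0.033 in the blocked fit. Asns, asparagine synthetase, was picked once its values were known and gave 10.97 and 7.03 CPM under the control and 12.6 and 10.7 CPM under the Numb exon 6 morpholino. It had the widest ratio in mouse 2 (0.60, against 0.20 in mouse 1) and a log2 fold change of 0.37 ± 0.27 (SE).

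Ppp1r15a (chromosome 7, 45522916 to 45526268), the stress-induced phosphatase subunit GADD34 in the feedback on eIF2 alpha phosphorylation, was the one gene of the arm with lower values and gave 1477 and 1933 CPM under the control and 939 and 1800 CPM under the Numb exon 6 morpholino. It was lower in both mice, by log2 ratios of -0.65 and -0.10, and lower in mouse 1 than in mouse 2 under either morpholino. The log2 fold change was -0.32 ± 0.33 (SE), with an unadjusted edgeR p of 0.377. In the blocked fit it was -0.38 ± 0.14 (SE), with an unadjusted edgeR p of 0.048 and an adjusted p of 0.796. With the mouse 1 Numb exon 6 library left out the log2 fold change was 0.07; that fit sets the lone mouse 2 library against controls of both mice. Its constitutive counterpart Ppp1r15b had a log2 fold change of 0.06 ± 0.10 (SE).

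A wider set held 32 other genes of the ATF4 and eIF2 alpha stress response, chosen for their known place in it. Of these, 3 had higher and 16 lower values in both mice, against 28.1% and 27.3% of all genes. On log2(TPM + 1) the counts were 3 and 11, against 32.1% and 23%. The same shares of all genes stand for the wider lists that follow. The median log2 fold change was -0.15, and edgeR called 0 with or without the mouse as a block. At an unadjusted edgeR p under 0.05 there were 0 without the block. With it there were 2 higher and 1 lower, against 3.41% and 2.68% of all genes. Atf3, a transcription factor downstream of ATF4, and Cebpg, its dimer partner, gave log2 fold changes of 0.37 ± 0.18 and 0.21 ± 0.12 (SE), and the amino acid transporter Slc7a5 had -0.27 ± 0.12 (SE). Among 36 other genes of ER folding and translocation, both mice gave higher values for 9 and lower ones for 14 (11 and 9 on log2(TPM + 1)), and the median was -0.04. Of those with the same sign in both mice, the smallest p belonged to Fkbp14 (0.29 ± 0.16), Sec62 (-0.18 ± 0.11) and to Sdf2 (-0.22 ± 0.14, SE). Among 22 other ERAD genes, 5 were higher and 8 lower (5 and 5 on log2(TPM + 1)), with a median of -0.04. Ubqln1 (-0.32 ± 0.15) and Nploc4 (-0.41 ± 0.19, SE) were lower in both mice. Among 16 other sensors and regulators, 2 were higher and 7 lower (4 and 5 on log2(TPM + 1)), with a median of -0.07. Bbc3, the cell death gene that CHOP can raise, had -0.62 ± 0.22 (SE), with an unadjusted edgeR p of 0.036, Creb3 -0.26 ± 0.16 and Mbtps1, the protease that cuts ATF6, 0.20 ± 0.14 (SE). None of these 106 genes passed the edgeR test, and 1 had an unadjusted p under 0.05, against 4.16% of all genes. In the blocked fit edgeR called 0 of them, with 2 higher and 5 lower at an unadjusted p under 0.05.

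Most chaperone and folding genes were lower in mouse 2 than in mouse 1, whichever morpholino was used. For 13 of the 17 chaperone and folding genes both libraries of mouse 2 lay below both of mouse 1, and for 0 both lay above. Over all tested genes the shares were 18.8% below and 20.9% above, and over genes whose mean log2 CPM reached 3 they were 28.3% and 20.3%. The count was 13 as well in TPM, with DESeq2 size factors, and without mitochondrial and rRNA-like genes. The median difference of the arm, mouse 2 minus mouse 1, was -0.27 on log2 CPM between the controls and -0.23 between the Numb exon 6 libraries. This compares 1 animal with 1 animal, so it has no test, and values of mouse, preparation and library cannot be told apart.

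The widest of these gaps were in Sdf2l1 and Pdia4. Sdf2l1, which keeps BiP substrates soluble, gave 36.0 CPM under the control and 37.8 CPM under the Numb exon 6 morpholino in mouse 1, with 23.7 and 23.0 CPM in mouse 2. The libraries of each mouse lay close together, and the difference was -0.60 in the controls and -0.72 in the Numb exon 6 libraries. Pdia4 differed by -0.76 and -0.43, Dnajb11 by -0.42 and -0.41, and Canx by -0.32 and -0.38. Hspa5, the most abundant, did not separate (0.08 and -0.02), nor did Calr, P4hb and Sec61b. Of the 7 folding genes with an ERSE match 5 were lower in mouse 2 without overlap, and of the 8 with a window and no match 6 were.

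In the other roles, both libraries of mouse 2 lay below those of mouse 1 for Atf6, Eif2ak3, Selenos, Derl1, Sel1l, Derl3 and Asns. Eif2ak3 differed by -0.72 in the controls and -0.90 in the Numb exon 6 libraries. Ppp1r15a was the one member above, by 0.39 and 0.94. Of all 35 members 20 were below and 1 above (19 and 1 in TPM). Among the 36 other folding and translocation genes the numbers were 25 and 0 (19 and 1 in TPM). They were 17 and 2 for the 32 other ATF4 and eIF2 alpha genes (15 and 0 in TPM). For the 22 other ERAD genes they were 9 and 2 (5 and 3), and for the 16 other sensors and regulators 6 and 3 (8 and 3). The shares were 18.8% and 20.9% over all tested genes, and 28.3% and 20.3% over those whose mean log2 CPM reached 3. In TPM these shares were 16.7% and 22.5%, and 23.5% and 22.8%. Markers of fibro-adipogenic progenitors summed to 875 and 956 TPM in mouse 1 and to 762 and 881 TPM in mouse 2, with 2 of 7 lower in mouse 2 without overlap. B and plasma cell markers summed to 11.2 and 9.01 TPM in mouse 1 and to 2.89 and 10.7 TPM in mouse 2. AY036118 and CT010467.1, which resemble rRNA, took 8.95% and 6.53% of the estimated counts in mouse 1 and 5.00% and 5.06% in mouse 2. The part of other cells in the difference was not tested. In these bulk libraries, fewer cells of a type and less RNA per cell cannot be told apart.

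**Figure D5:**
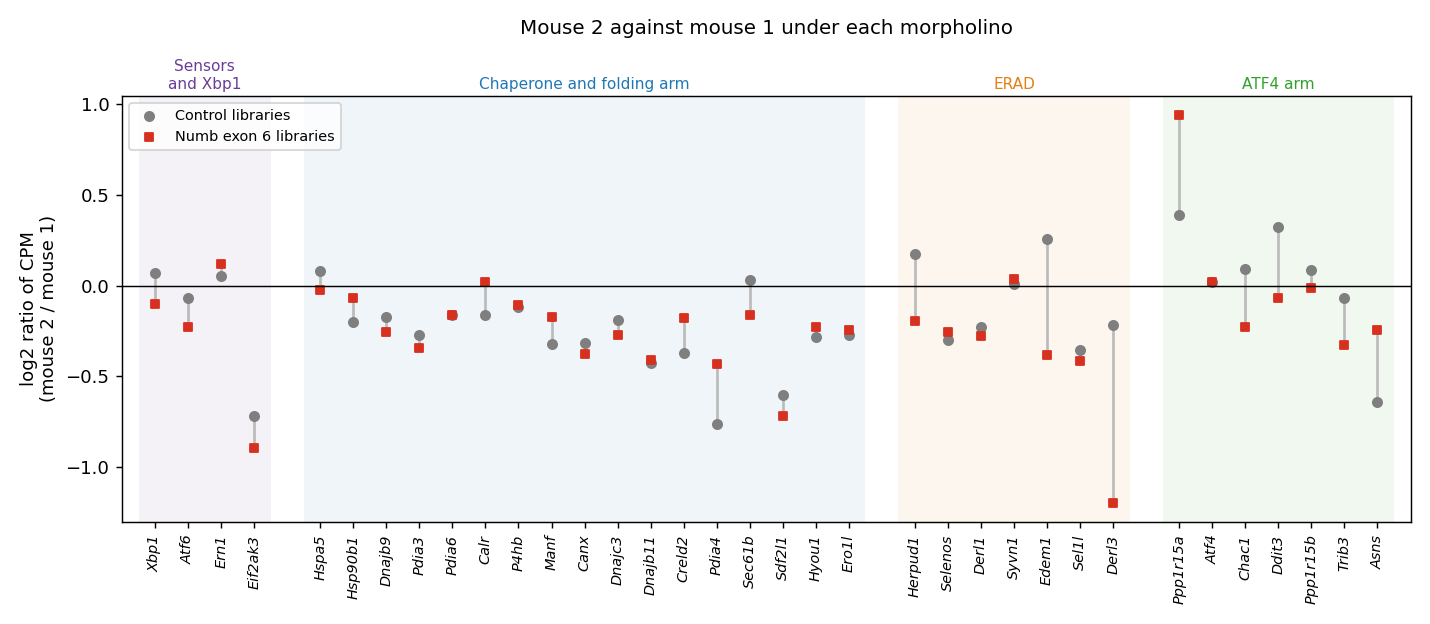
Log2 ratio of CPM, mouse 2 over mouse 1, between the control libraries (grey circles) and between the Numb exon 6 libraries (red squares) for each member, with a grey line joining them. Of the 17 chaperone and folding genes, 13 have both libraries of mouse 2 below both of mouse 1, while Ppp1r15a lies at 0.39 and 0.94.

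The estimated counts summed to between 230431665 and 355411827 per library. They were derived from coverage, so these totals are not numbers of fragments, and no counting interval was drawn from them. Exons of 11 of the 35 members overlap exons of another annotated gene, and the SMART-Seq2 libraries do not mark strand, so their counts are uncertain by what the neighbour adds. The neighbours include Mars of Ddit3 (42.3 TPM against 163 TPM), Dcaf1 of Manf (56.0 TPM against 374 TPM) and the small RNA model Gm25745 inside Hsp90b1 (668 TPM against 1016 TPM). TPM is scaled to transcript length, so these pairs do not give the share of a member's counts that a neighbour adds.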

How the data were processed

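RNA of 4 satellite cell libraries was analysed from the authors' estimated counts and TPM per gene. Per the labels' protocols, 5 ng of RNA was amplified by the SMART-Seq2 method. The submitters' processing notes name GRCm38, HISAT2 2.1.0 and StringTie 1.3.6. Which annotation release they used, and how coverage became counts, is not given in the sources used here. Estimated counts were deposited as whole numbers, and TPM, per the file headers a value per gene and library, was scaled by the authors for length and library size.

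All genes were fitted with edgeR 4.0.16 in R 4.3.3 (quasi-likelihood, robust, TMM, default filter by group, no block) and adjusted by Benjamini-Hochberg at 0.05. Within a mouse, ratios were taken on log2 CPM (prior count 2). The mouse numbers in the labels are animals, so they pair the libraries; same-mouse libraries deviated together (r = 0.40 over genes whose mean log2 CPM reached 3, and 0.06 over all; genes are not independent). Alternatives used the block, DESeq2 1.42.0, limma 3.58.1 with voom or TPM, other filters and scalings, and each library left out. Coordinates come from GENCODE vM21 and promoters from RefSeq, both GRCm38.

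The members and lists were chosen with earlier results of these data known. Values per library were given for the sensors, Xbp1, Hspa5, Atf4 and Ddit3, the 3 most abundant members of each role, and the 2 with the smallest p and the same sign in both mice. Outside this rule, Calr and Sdf2l1 were given for how their libraries separated. Pdia4, Edem1, Derl3 and Asns were picked once their values were known. From the wider lists, up to 3 genes with the smallest p and the same sign were named. One gene that this rule names is not reported here.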

Additional observations from a re-analysis of the deposited data

How the results depend on the processing

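No member was called under any of the 16 settings, which include the mouse as a block (0 called, as without it), DESeq2 with the block (smallest adjusted p among members 0.223), limma-voom and the removal of each library. Over all genes edgeR called 5 higher and 5 lower without a filter on low counts and 1 higher at a CPM of at least 5 in 2 libraries. DESeq2 called 39 higher and 26 lower without a block and 104 and 55 in its blocked fit, and leaving out each library gave 0 to 1 higher and 0 lower. On log2(TPM + 1) and log2(TPM + 0.1) the median log2 fold changes were -0.089 and -0.090 for the sensors and Xbp1, 0.0069 and 0.0069 for the folding arm, and 0.307 and 0.309 for the ATF4 arm, and the median ratio of all members within mouse 1 was 0.094 on log2(TPM + 1), a scale chosen for it after the data were seen. On that scale the median of genes whose mean log2 CPM reached 3 was 0.075 in mouse 1, against 0.010 on log2 CPM. With each library left out, the medians ran from -0.21 to -0.036 for the sensors and Xbp1, from -0.23 to 0.058 for the folding arm, from -0.21 to 0.067 for ERAD and from 0.137 to 0.280 for the ATF4 arm. A group then holds a lone library, which is assumed to vary like the other group. Of the 21 members with their own fold change tracked, 9 changed sign under some setting. With each library left out, their log2 fold changes ran from -0.21 to 0.014 for Atf6, -0.028 to 0.045 for Hspa5, -0.160 to 0.050 for Hsp90b1, -0.125 to 0.133 for Dnajb9, -0.170 to 0.599 for Pdia4, -0.266 to 0.043 for Selenos, -0.21 to 0.067 for Derl1, -0.354 to 0.873 for Derl3 and -0.863 to 0.075 for Ppp1r15a. For the other 12 they ran from -0.32 to -0.199 for Ern1, -0.98 to -0.059 for Eif2ak3, 0.034 to 0.137 for Xbp1, -0.25 to -0.128 for P4hb, -0.32 to -0.156 for Sec61b, 0.126 to 0.32 for Herpud1, -0.39 to -0.0015 for Edem1, 0.137 to 0.156 for Atf4, 0.20 to 0.43 for Chac1, 0.095 to 0.41 for Ddit3, 0.163 to 0.49 for Trib3 and 0.077 to 0.73 for Asns. Hsp90b1 was 0.0069 on either TPM scale. The cause was not tested. The mouse block changed the call of no member, in edgeR or in DESeq2.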
